A study of Homo sapiens with 20 samples.

Results

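A set of 9 genes that ties p53 to ferroptosis and to iron handling were followed in NGP cells, an established human neuroblastoma line, after inhibition of MDM2 with nutlin-3. The genes are SLC7A11, GLS2, GPX4, SAT1, ALOX12, ACSL4, TFRC, FDXR and FDX1. They were picked by their GENCODE gene names, and all 9 passed the filter on low counts among 27697 tested genes, of which 17351 were mRNAs. One group of 10 libraries came from cells given nutlin-3 as a racemic mixture at 8 µM, and the other group of 10 came from cells given the vehicle, ethanol. Nutlin-3 blocks the binding of MDM2 to p53. The cells of both groups were of 1 line, grown in 6-well format, and the duration of treatment was not given in the sources used here. Poly(A) RNA was sequenced as stranded paired-end libraries, and the 10 libraries of a condition are described as biological replicates.

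Ferroptosis is an iron-dependent form of cell death that follows the peroxidation of polyunsaturated fatty acids in membrane phospholipids. Cystine enters the cell through the exchanger formed by SLC7A11 and SLC3A2, is reduced to cysteine and built into glutathione, and GPX4 uses glutathione to reduce lipid peroxides. p53 has been linked to this process by several routes in earlier work on other cells, among them repression of SLC7A11, induction of SAT1, GLS2 and FDXR, and a dependence on the lipoxygenase ALOX12. ACSL4 supplies the polyunsaturated acyl groups that are oxidized, and TFRC brings in iron bound to transferrin.

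With nutlin-3, 4 of the 9 genes were higher, 3 were lower and 2 were not called. GLS2, FDXR, SLC7A11 and SAT1 rose by 80.3-fold, 21.5-fold, 8.46-fold and 2.45-fold, in that order. TFRC, FDX1 and GPX4 fell to 0.803, 0.758 and 0.885 of their vehicle level. ACSL4 and ALOX12 stood at 1.07 and 1.03 times the vehicle level. Calls are from the edgeR quasi-likelihood (QL) test at a false discovery rate (FDR) of 5%, by which 70.9% of the tested mRNAs were called, 32.4% of them as higher and 38.5% as lower. The count of 7 called genes among 9 is therefore near that background. Of the 9 genes, 4 were called as higher by at least 2-fold, which was the case for 14.1% of all tested mRNAs. The ranges in CPM, the counts scaled to library size, did not overlap for 5 of the 9 genes and for 40.2% of the tested mRNAs. For so few genes, this count is not far from its background.

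**Figure D1:**
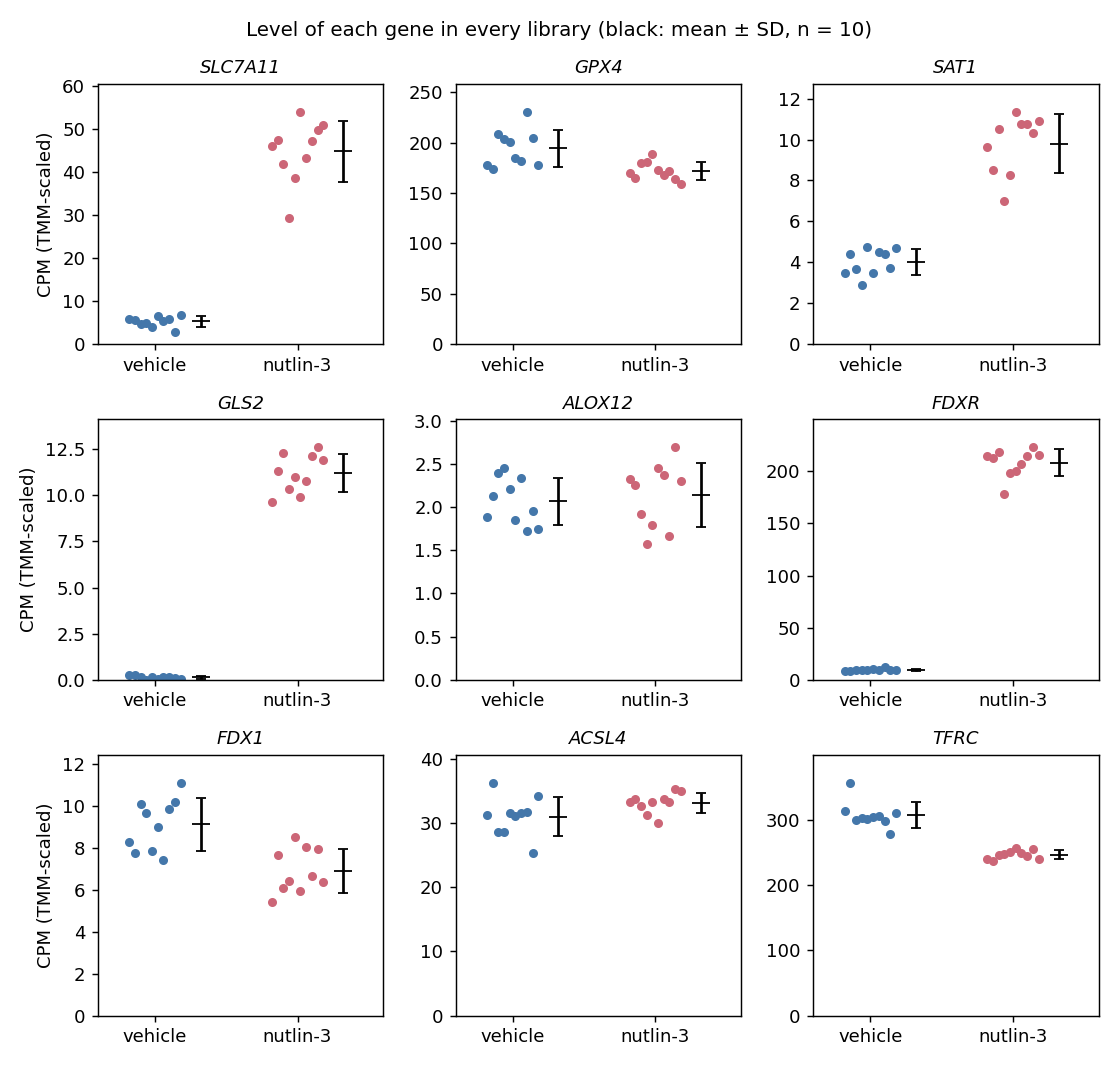
Level of each gene in CPM (counts scaled to the TMM-adjusted library size) in every library, with vehicle libraries in blue, nutlin-3 libraries in red, and the mean ± SD of 10 libraries in black; each vertical axis starts at 0. The ranges are separate for SLC7A11, SAT1, GLS2, FDXR and TFRC and overlap for GPX4, ALOX12, FDX1 and ACSL4.

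The libraries held between 14455477 and 19532971 estimated counts with vehicle and between 15078052 and 17442896 with nutlin-3. MDM2 and CDKN1A, both direct targets of p53, served as a check of the treatment labels and were 22.7-fold and 51.1-fold higher with nutlin-3. Of 8 markers of adrenergic neuroblastoma all were measured, at a summed TPM (a level scaled by transcript length) of 2656 to 3072 with vehicle and 3217 to 4083 with nutlin-3. Of these markers 3 were higher, 4 were lower and 1 was not called, with a median LFC (log2 fold change) of -0.11. Markers of other cell types summed to between 8.34 and 11.97 TPM with vehicle and between 14.5 and 23.6 TPM with nutlin-3, with 6 of 11 measured markers higher, 1 lower and SOX10 not measured well enough to test. The largest changes among them were those of CD68 (0.807 to 3.95 CPM on average), COL1A1 (8.91 to 35.2 CPM) and PRRX1 (0.525 to 2.08 CPM), with a median LFC of 0.81 over the 11 markers. PTPRC, COL1A2 and KRT5 were each below 1 CPM on average in both conditions and were not called. The part of these markers in the results was not tested. With bulk RNA, a change in the amount of RNA per cell cannot be told apart from a change in the share of cells that express a gene.

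SLC7A11 (ENSG00000151012, chromosome 4, 138164097 to 138242349, minus strand, GRCh38) encodes the transport subunit of the cystine/glutamate exchanger. Its level ranged from 2.68 to 6.68 CPM with vehicle, with a median of 5.53, and from 29.3 to 54.0 CPM with nutlin-3, with a median of 46.5. Every nutlin-3 library was thus above every vehicle library. The log2 fold change (LFC, nutlin-3 over vehicle) was 3.08 with a standard error (SE) of 0.109 (edgeR QL adjusted p = 1.3e-20), which placed SLC7A11 at rank 190 by LFC among 12797 mRNAs with a mean of at least 1 CPM. It also varied more between libraries of a condition than most mRNAs of like mean level over both conditions. The SD of its log2 CPM within conditions was 0.326. Over the 500 mRNAs nearest to it in log2 CPM averaged over all 20 libraries the median was 0.139, and 96.6% had a smaller SD. SLC7A11 itself was below that average with vehicle and above it with nutlin-3. The SD takes in vehicle replicate 11 (2.68 CPM) and nutlin-3 replicate 4 (29.3 CPM), the lowest of their groups.

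The antisense lncRNA SLC7A11-AS1 overlaps SLC7A11 over 14081 bases on the opposite strand. It held 0 to 4.74 estimated counts with vehicle and 14.4 to 40.3 with nutlin-3, compared with 33.4 to 113 and 428 to 817 for SLC7A11 itself. These counts are not scaled by length. Whether the strand of the reads was used in counting is not given in the sources used here, so reads of an antisense pair cannot be told apart with certainty. SLC3A2, the partner chain of SLC7A11, rose by 1.49-fold (LFC 0.57, SE 0.044, edgeR QL adjusted p = 1.39e-12). The TPM of SLC7A11 divided by that of SLC3A2 had a median of 0.00705 with vehicle (0.00451 to 0.00847) and 0.0377 with nutlin-3 (0.0275 to 0.0431). The light chain therefore remained far below its partner per unit of length in both conditions.

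GLS2 (ENSG00000135423, chromosome 12, 56470944 to 56488414, minus strand) encodes the liver-type glutaminase, which makes glutamate in mitochondria. With vehicle it was barely detected, at 0 to 4.35 estimated counts per library and a total of 20 over the 10 libraries after rounding. In CPM this was 0 to 0.284 with a median of 0.135, against 9.65 to 12.6 with a median of 11.2 after nutlin-3. The groups were far apart, with 1 vehicle library at 0 counts and no nutlin-3 library below 150 counts. The LFC was 6.33 with an SE of 0.162 (edgeR QL adjusted p = 4.4e-24), a fold change of 80.3 with a nominal 95% interval of 64.4 to 100.0. This SE and interval are likely too narrow, because the vehicle side rests on a total of only 20 counts. With an offset for effective transcript length the LFC was 5.26, still called.

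GLS2 overlaps SPRYD4 on the opposite strand over 8765 bases, and SPRYD4 held 167 to 271 estimated counts with vehicle and 359 to 450 with nutlin-3. A further annotated gene on the same strand, ENSG00000285528, shares 17227 bases with GLS2 and was not analysed here.

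GPX4 (ENSG00000167468, chromosome 19, 1103982 to 1106791, plus strand) encodes the selenoenzyme that reduces phospholipid hydroperoxides. It ranged over 174 to 231 CPM with vehicle (median 192.6) and 159 to 189 CPM with nutlin-3 (median 170.8). The ranges overlapped, although all 10 nutlin-3 libraries were below the vehicle median and 7 were below every vehicle library. The LFC was -0.18 with an SE of 0.045 (edgeR QL adjusted p = 0.00118). The median LFC over the 12797 mRNAs with a mean of at least 1 CPM was -0.15, so that GPX4 stood close to the middle of the expressed mRNAs. With DESeq2 size factors these values were -0.13 and -0.10, and after the filterByExpr filter they were -0.10 and -0.07.

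ACSL4 (ENSG00000068366, chromosome X, 109624244 to 109733403, minus strand) encodes an acyl-CoA synthetase that prefers arachidonic acid. Its level was 25.3 to 36.2 CPM with vehicle (median 31.4) and 29.96 to 35.3 CPM with nutlin-3 (median 33.3). The nutlin-3 range lay wholly inside the vehicle range. The LFC of 0.09 (SE 0.049) was not called (edgeR QL adjusted p = 0.101, fold change 1.07 with a 95% interval of 0.999 to 1.14). This depended on scaling and filtering, because the adjusted p was 0.0141 with DESeq2 size factors, 0.00268 after filterByExpr and 0.000869 (LFC 0.35) with an offset for effective length. It was also below 0.05 when vehicle replicate 4 (0.0271), 10 (0.0424) or 12 (0.0313) was left out.

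ALOX12 (ENSG00000108839, chromosome 17, 6996049 to 7010754, plus strand) encodes the platelet-type arachidonate 12-lipoxygenase. It was low in every library, at 1.72 to 2.45 CPM with vehicle (median 2.04) and 1.57 to 2.69 CPM with nutlin-3 (median 2.28). The ranges overlapped almost completely, and the LFC was 0.05 with an SE of 0.121 (edgeR QL adjusted p = 0.774). The 95% interval of the fold change was 0.875 to 1.22, on 24.0 to 40.0 estimated counts per vehicle library. The lncRNA ALOX12-AS1 spans ALOX12 on the opposite strand. It held more counts than ALOX12, 65.2 to 98.8 with vehicle and 54.0 to 78.7 with nutlin-3, not scaled by length. For this pair too, reads of the 2 strands cannot be told apart with certainty.

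SAT1 (ENSG00000130066, chromosome X, 23783173 to 23786210, plus strand) encodes spermidine/spermine acetyltransferase, the rate-limiting enzyme of polyamine breakdown. It ranged from 2.88 to 4.76 CPM with vehicle (median 4.07) and from 6.98 to 11.4 CPM with nutlin-3 (median 10.4). The lowest nutlin-3 library was above the highest vehicle library. The LFC was 1.29 with an SE of 0.098 (edgeR QL adjusted p = 1.01e-12).

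TFRC (ENSG00000072274, chromosome 3, 196012511 to 196082153, minus strand) encodes transferrin receptor 1, the main route of iron uptake in dividing cells. It ranged from 278.4 to 356.7 CPM with vehicle (median 304.2) and from 238.0 to 257.8 CPM with nutlin-3 (median 247.5). All nutlin-3 libraries were below all vehicle libraries, a small shift with little spread. The LFC was -0.32 with an SE of 0.034 (edgeR QL adjusted p = 2.29e-09). By LFC, TFRC ranked 7839 among the 12797 mRNAs with a mean of at least 1 CPM, whose median LFC was -0.15. With the offset for effective length the LFC of TFRC was -0.17 (adjusted p = 0.0016), which kept the direction and the call. The median of those mRNAs was then -0.12, so the size of the decline of TFRC depended on whether effective length was taken into account.

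FDXR (ENSG00000161513, chromosome 17, 74862497 to 74873031, minus strand) encodes ferredoxin reductase, which passes electrons from NADPH to the mitochondrial ferredoxins for iron-sulfur cluster and steroid synthesis. It ranged from 8.24 to 12.2 CPM with vehicle (median 9.51) and from 178.4 to 223.0 CPM with nutlin-3 (median 213.7). The 2 ranges were more than 10-fold apart. The LFC was 4.43 with an SE of 0.054 (edgeR QL adjusted p = 2.83e-31), and FDXR ranked 78 by LFC among the 12797 mRNAs.

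FDX1 (ENSG00000137714, chromosome 11, 110429948 to 110464884, plus strand) encodes the ferredoxin that accepts these electrons. It ranged from 7.42 to 11.1 CPM with vehicle (median 9.33) and from 5.39 to 8.52 CPM with nutlin-3 (median 6.55). The ranges overlapped, with 6 of 10 nutlin-3 libraries below every vehicle library. The LFC was -0.40 with an SE of 0.09 (edgeR QL adjusted p = 0.000306), and FDX1 ranked 8539 by LFC among the 12797 mRNAs. FDX2, the second mitochondrial ferredoxin, had an LFC of 0.00 (SE 0.068, adjusted p = 0.979). The median TPM ratio of the reductase to FDX1 was 2.25 with vehicle (1.79 to 2.56) and 60.7 with nutlin-3 (47.1 to 83.4), so reductase and ferredoxin mRNA moved in opposite directions.

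**Figure D2:**
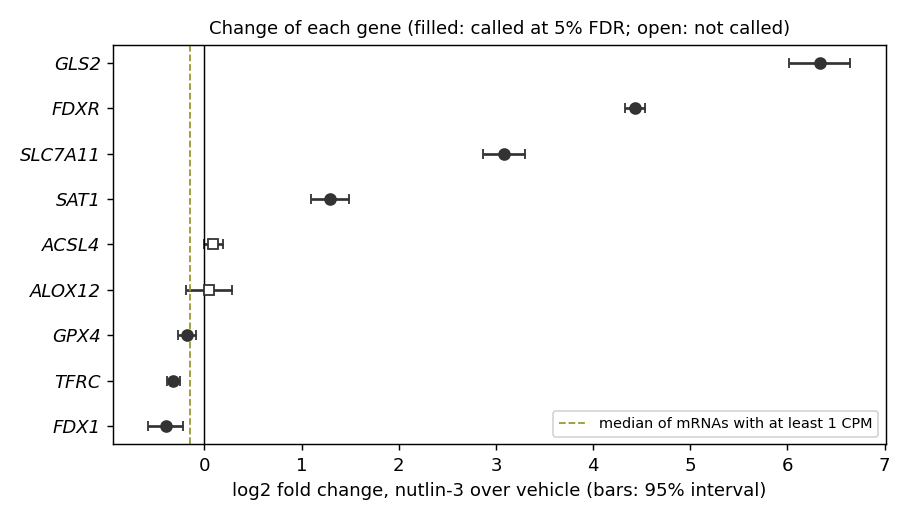
Log2 fold change of each gene (nutlin-3 over vehicle, edgeR QL, 10 against 10 libraries) with bars for the 95% interval, filled where called at 5% FDR and open where not called; the dashed line is the median of mRNAs with at least 1 CPM. GLS2 (6.33), FDXR (4.43), SLC7A11 (3.08) and SAT1 (1.29) lie far to the right, and the other 5 genes lie between -0.40 and 0.09. The bar of GLS2 rests on few vehicle counts and is likely too narrow.

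The bases before the transcription start were searched for motifs because the genes that rose include described targets of p53. RefSeq start sites (GRCh38.p14) were listed for 8 of the 9 genes, in 11 windows of 250 bases, and no window of SLC7A11 was searched. A p53 half-site, the 10-base motif that occurs in pairs in a full site, was found on either strand in 2 windows, those of FDXR (at bases -11 to -2) and ALOX12 (at bases -99 to -90). Over 35116 windows of the same length, 5.57% held a half-site, and 0.0256% held a full site of 2 half-sites with a spacer of at most 13 bases, which no window of these genes did. TGATGNAA and TGACNNNGC, motifs of ATF4-type and NRF2-type factors, were found in 3.14% and 10.9% of all windows and in none of these. By the GENCODE annotation, all 250 bases of the GLS2 window and 146 bases of the ACSL4 window lie in exons of the same gene. Windows of GPX4, FDXR and TFRC also overlap their own exons in part. The lack of a match for GLS2 is therefore no result on the bases before its outermost annotated start. The windows with a half-site are shown for FDXR, which rose 21.5-fold, and for ALOX12, which was not called, beside that of SAT1, which rose without a match. Capitals mark the half-site, sequences run 5′ to 3′ on the strand of the gene, and for FDXR only the last 30 bases before the start at chr17:74872995-74873024 (minus strand) are shown, because they lie in an exon annotated by GENCODE. ALOX12 is at chr17:6995799-6996048 and SAT1 at chrX:23782923-23783172, both on the plus strand.
FDXR: ggcgggcccgggcaggagcGGGCTTGCCCt
ALOX12: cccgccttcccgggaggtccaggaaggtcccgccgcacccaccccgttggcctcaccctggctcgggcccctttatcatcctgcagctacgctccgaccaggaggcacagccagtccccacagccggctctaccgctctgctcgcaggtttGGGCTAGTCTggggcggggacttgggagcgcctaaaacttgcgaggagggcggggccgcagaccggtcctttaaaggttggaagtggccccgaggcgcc
SAT1: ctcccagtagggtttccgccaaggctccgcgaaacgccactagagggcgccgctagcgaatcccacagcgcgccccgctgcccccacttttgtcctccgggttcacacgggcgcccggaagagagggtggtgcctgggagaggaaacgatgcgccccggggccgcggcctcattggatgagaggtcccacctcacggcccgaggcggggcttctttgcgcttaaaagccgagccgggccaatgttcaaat

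Levels of the 9 genes were compared with each other only in TPM, which is scaled by transcript length. With vehicle the mean TPM fell from GPX4 (321 ± 14.4, SD, n = 10) through TFRC (73.9 ± 8.67), ACSL4 (9.28 ± 1.54), FDXR (6.83 ± 0.79), SAT1 (4.97 ± 0.914), FDX1 (3.10 ± 0.363), ALOX12 (2.02 ± 0.707) and SLC7A11 (0.588 ± 0.133) to GLS2 (0.302 ± 0.249). GPX4, TFRC and the next gene down had ranges over the libraries that did not overlap, and neither did those of ALOX12 and SLC7A11. From ACSL4 to ALOX12, each gene overlapped its neighbour, and SLC7A11 overlapped GLS2. With nutlin-3 the order was GPX4 (282 ± 11.1), FDXR (144 ± 13.01), TFRC (65.3 ± 3.56), SAT1 (11.9 ± 1.75), ACSL4 (11.9 ± 1.98), GLS2 (6.41 ± 0.461), SLC7A11 (5.24 ± 0.972), FDX1 (2.32 ± 0.338) and ALOX12 (2.01 ± 0.549). FDXR thus moved from rank 4 to rank 2, with no overlap with GPX4 above it or TFRC below it. Among all tested mRNAs its level was above 51.5% with vehicle and above 96.7% with nutlin-3. SAT1 overlapped ACSL4, GLS2 overlapped SLC7A11, and FDX1 overlapped ALOX12, so the order within these pairs is not resolved.

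**Figure D3:**
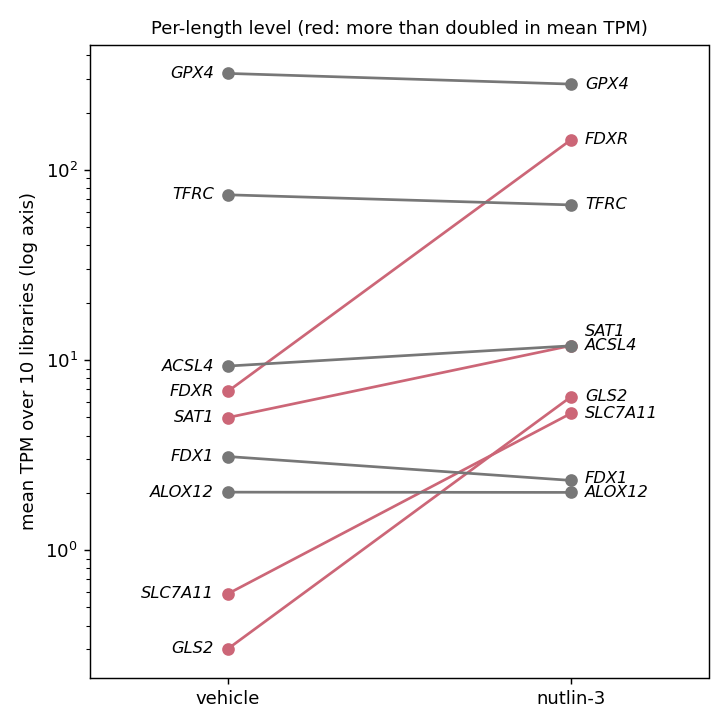
Mean TPM over 10 libraries with vehicle (left) and nutlin-3 (right) on a log axis, 1 line per gene, red where the mean more than doubled. FDXR crosses TFRC (6.83 to 144 against 73.9 to 65.3), and SLC7A11 and GLS2 rise from the bottom of the order past FDX1 and ALOX12.

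One nutlin-3 library stood at the low end for several of these genes. Nutlin-3 replicate 4 was the lowest of its group for SLC7A11 (29.3 CPM), SAT1 (6.98), ALOX12 (1.57) and FDXR (178.4), and it was also lowest for MDM2 (4797) and CDKN1A (1318). Leaving out each library in turn kept the LFC between 3.03 and 3.15 for SLC7A11, between 1.25 and 1.35 for SAT1 and between 4.40 and 4.49 for FDXR. No call of these 3 genes was lost.

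For 8 genes with more than 1 transcript, the share of each transcript in its gene was compared as well. Of 71 transcripts tested for usage, 2 were called at 5% FDR (edgeR diffSpliceDGE), against 5.49% of 91698 transcripts overall. At the level of genes, TFRC (adjusted p = 3.6e-11, Simes method) and GLS2 (adjusted p = 0.0224) were called, against 20.4% of 14362 genes. In TFRC, the coding transcript TFRC-202 gained in share. It held 0 to 400 estimated counts with vehicle (median 79.2) and 273 to 621 with nutlin-3 (median 425), although the gene as a whole fell. Its usage, relative to the whole gene, changed by 2.15 on the log2 scale (adjusted p = 1.42e-11), and its TPM share was 2.17% ± 1.90 with vehicle and 8.64% ± 2.13 with nutlin-3 (SD, n = 10). The ranges of the share overlapped, as 1 vehicle library had 6.71% and the lowest nutlin-3 library 6.04%.

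TFRC-201, the main transcript, had a share of 81.1% ± 4.92 with vehicle and 66.4% ± 5.22 with nutlin-3, and its usage was not called (adjusted p = 0.895). In GENCODE release 44 both transcripts have 19 exons, share 17 of them exactly, and have the same 18 coding segments, so they encode the same protein. They differ in the first exon, which has 48 bases in TFRC-201 (196082043 to 196082090 on chromosome 3) and 260 bases in TFRC-202 (196081831 to 196082090). They also differ in the last exon, of 2901 and 2709 bases. The length of TFRC-201 in the files, 5111 bases, is not that of release 44, 5012 bases, so the form that was counted may have differed from the one described here.

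In GLS2, the retained-intron transcript GLS2-211 lost share, with a TPM share of 68.8% ± 40.5 with vehicle and 11.8% ± 6.70 with nutlin-3 (usage -4.87 on the log2 scale, adjusted p = 0.0109). The vehicle share rested on at most 2.47 estimated counts per library. With limma diffSplice this call was lost (adjusted p = 0.117). GLS2-203, annotated as a target of nonsense-mediated decay, and the coding GLS2-201 were at 0 in all vehicle libraries. The whole gene held a total of only 20 counts there. With nutlin-3 GLS2-203 held 33.6% ± 11.6 and GLS2-201 up to 34.8% of the summed TPM (usage adjusted p = 0.0681 and 0.158, not called). Over all 6 decay-annotated transcripts of GLS2 the share with nutlin-3 was 41.9% ± 12.9, compared with 39.0% ± 9.08 for the coding ones.

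No transcript of the other 6 genes was called for usage by diffSpliceDGE, whereas limma diffSplice also called transcripts of FDXR and SAT1. The coding transcript GPX4-210 made up 82.0% ± 1.66 of GPX4 with vehicle and 82.3% ± 1.34 with nutlin-3. Of FDXR, 50.7% ± 11.9 of the TPM came from coding transcripts with vehicle and 44.6% ± 2.36 with nutlin-3, so that the 21.5-fold rise was not confined to 1 class of transcript. For SAT1, retained-intron transcripts held 58.2% ± 9.28 with vehicle and 56.9% ± 5.91 with nutlin-3, more than the coding ones at 35.5% ± 15.6 and 31.8% ± 5.49. SAT1 values summed over the gene thus largely reflect transcripts that are annotated as not coding. The uncertainty of dividing reads among similar transcripts is not contained in the files, and these shares carry it.

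The genes around these 9 in their pathways were described from 7 lists, which hold 116 tested genes in all. Of these, 31 (26.7%) were higher, 60 (51.7%) were lower and 25 were not called, with a median LFC of -0.20. The respective background over the tested mRNAs was 32.4% and 38.5%, and the counts of each single list below are to be read against it. Neither the lists nor their members were chosen independently of these data, and no test of a list was made.

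**Figure D4:**
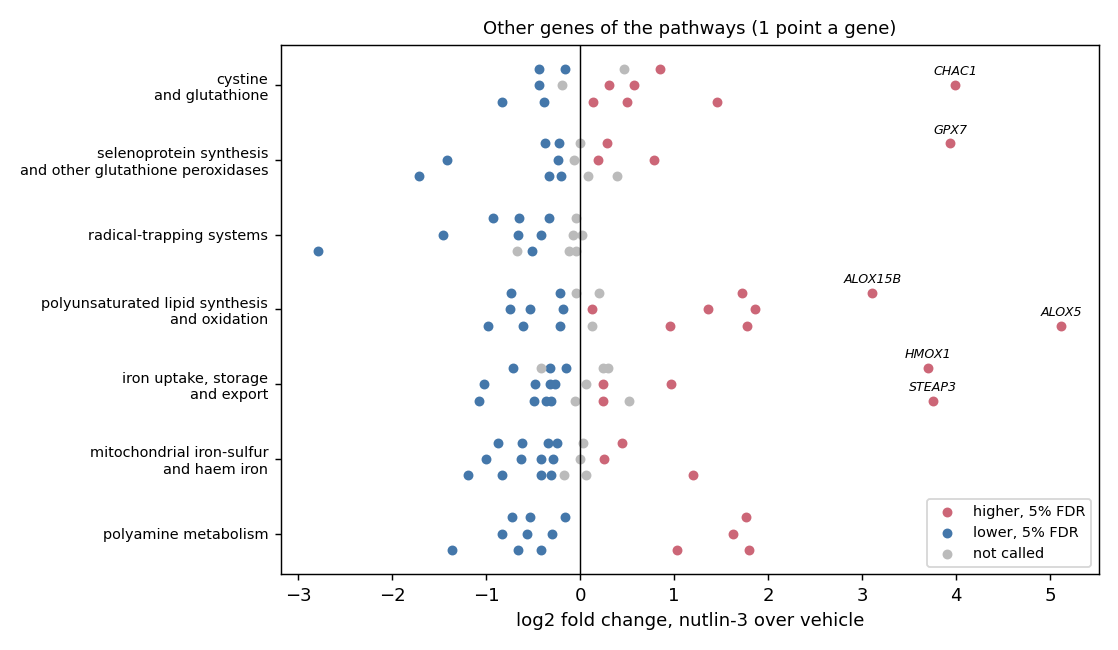
Log2 fold change (nutlin-3 over vehicle) of the genes of 7 pathway lists, 1 point per gene, red for higher and blue for lower at 5% FDR and grey for not called. No gene of the radical-trapping list is red, and the iron and lipid lists hold both the far-right points STEAP3, HMOX1 and ALOX5 and many blue points left of 0.

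In the cystine and glutathione list, 7 of 14 genes were higher and 5 lower. CHAC1, which degrades glutathione, rose from 0.805 to 12.6 CPM on average (LFC 3.99, SE 0.308, edgeR QL adjusted p = 1.67e-12). GGT1, which breaks down glutathione outside the cell, rose by 2.75-fold, a value made uncertain by near-identical paralogs. CTH, which makes cysteine from cystathionine, rose by 1.80-fold. The list thus contained genes on both the supply and the breakdown side of glutathione among those that rose. Of selenoprotein synthesis and the other glutathione peroxidases, 4 of 15 were higher and 7 lower. GPX3, a secreted peroxidase, fell to 0.304 and SEPHS1, a selenophosphate synthetase paralog, fell to 0.373 of the vehicle level, whereas the cytosolic GPX1 rose by 1.73-fold.

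Of the radical-trapping systems that act beside GPX4, none of 14 was higher and 8 were lower (edgeR QL). Over the tested mRNAs 32.4% were higher and 38.5% lower, and the difference of this list from them was not tested. The count of higher genes was also 0 at an unadjusted p below 0.05, with DESeq2 and with limma voom, and it was 1 (COQ4) after filterByExpr. COQ2, of ubiquinone synthesis, and VKORC1L1, a vitamin K reductase, fell to 0.363 and 0.525. AIFM2 (also called FSP1), the ubiquinone reductase that guards against ferroptosis, had an LFC of -0.08 (SE 0.081, adjusted p = 0.39).

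In the list of polyunsaturated lipid synthesis and oxidation, 8 of 19 genes were higher and 8 lower. ALOX5, the arachidonate 5-lipoxygenase, ranged from 0 to 0.206 CPM with vehicle and from 1.72 to 4.45 CPM with nutlin-3 (LFC 5.12, SE 0.315, edgeR QL adjusted p = 8.63e-15), and its groups did not overlap. ALOX15 was called higher (LFC 1.77, adjusted p = 0.006) at no more than 0.328 CPM in any library, a level of a few counts. PEBP1, a partner of the 15-lipoxygenases, fell to 0.506, and the phospholipase PLA2G6 rose by 1.95-fold. With the filterByExpr filter 4 genes of this list were higher in place of 8, and ALOX15, ALOX15B, ALOX12B and ALOXE3 were among the genes it removed.

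In the list of iron uptake, storage and export, 5 of 22 genes were higher and 11 lower. STEAP3, the ferrireductase that acts on iron released from transferrin, rose from 4.04 to 54.3 CPM (LFC 3.75, SE 0.076, edgeR QL adjusted p = 1.65e-26). HMOX1, which frees iron from haem, rose from 1.14 to 14.8 CPM (LFC 3.70, SE 0.195, edgeR QL adjusted p = 2.05e-16). Neither of them overlapped between conditions, whereas TFRC was lower. CISD2, an iron-sulfur protein of the outer membranes of the endoplasmic reticulum and mitochondria, fell to 0.472. The ferritin chains were split, with FTH1 1.18-fold higher (adjusted p = 2.91e-05) and FTL at 0.71 of vehicle (adjusted p = 6.07e-11), both uncertain because reads may be shared with their pseudogenes.

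Of the mitochondrial iron-sulfur and haem iron genes, 3 of 19 were higher and 12 lower. ISCU, the scaffold of cluster assembly, rose by 2.30-fold (LFC 1.20, SE 0.049, edgeR QL adjusted p = 3.49e-19). FECH, which inserts iron into haem, and ISCA2, a late-acting assembly factor, fell to 0.439 and 0.50. FDXR was counted apart and is not among these 19. In polyamine metabolism, 4 of 13 genes were higher and 9 lower. SMOX, which oxidizes spermine, rose by 3.48-fold beside SAT1, and AZIN2, an antizyme inhibitor, rose by 3.09-fold. ODC1 and SMS, of polyamine synthesis, fell to 0.812 and 0.387.

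SLC7A11 is also a known target of ATF4 and of NRF2, and both sets were followed. Of 10 ATF4-linked genes, 8 were higher and 1 lower, led by ATF3 (LFC 4.90), SESN2 (4.34) and CHAC1 (3.99). CHAC1 is also in the cystine and glutathione list. ATF3 and SESN2 are described p53 targets as well. Of 10 NRF2-linked genes, SLC7A11 among them, 4 were higher and 3 lower. The background for both sets is the tested mRNAs, of which 32.4% were higher and 38.5% lower. HMOX1 (LFC 3.70) and SLC7A11 (3.08) rose, and TXN fell (LFC -1.17). NQO1, which was named after its value was seen, was not called (LFC -0.05, SE 0.137, edgeR QL adjusted p = 0.772). The part of ATF4 or of NRF2 in the rise of SLC7A11 was not tested.

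Finally, the mRNA with the most similar profile was sought for each of the 9 genes among 12797 mRNAs, as the smallest root mean square difference in log2 CPM over the 20 libraries after centring on the vehicle mean. For FDXR this was SESN2 (difference 0.176), for SLC7A11 it was FMN1 (0.22), for SAT1 IKBIP (0.182) and for GLS2 CDC42BPG (0.554). The matches of the genes with small changes were closer, such as TFRC with NDUFS1 (0.0413), GPX4 with TUFM (0.0537) and ACSL4 with SEL1L (0.0725). FDX1 was nearest to PLLP (0.137) and ALOX12 to ADRA2A (0.169). These likenesses rest on the same libraries and mostly on the shared difference between conditions.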

How the data were processed

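RNA-seq of 20 NGP libraries (10 vehicle, 10 nutlin-3) was analysed from the deposited kallisto 0.42.4 output (hg38; per the paper's methods an index of GRCh38 with Ensembl 85). The authors deposited estimated counts per transcript without normalization, TPM values scaled by kallisto for effective length and depth, and the effective lengths in bases. Of 198968 transcripts, 191106 (96.05%) were matched by identifier to GENCODE release 44, and the remaining 7862 were not used. Gene counts are rounded sums over transcripts. Protein-coding and lncRNA genes detected in both conditions (a total of at least 1 count each) were tested with edgeR 4.0.16 in R 4.3.3 (TMM, glmQLFTest, condition as the only term, Benjamini-Hochberg over all tested genes, 5% FDR). SE is the LFC divided by the root of F. Transcript usage was tested with diffSpliceDGE on transcripts with a mean of at least 1 count. TPM itself was not tested, and it entered a test only as the weight for the effective length of a gene in the offset setting. Motifs were searched on both strands of the 250 bases before RefSeq start sites. Tests were tried on simulated data first.

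The genes, the lists and the tests were chosen with earlier results of these data known. Named from each list were fixed partners (SLC3A2, FDX2, FTH1, FTL, ODC1, SMOX, ALOX15, AIFM2) and the 3 called genes of largest absolute LFC with at least 1 CPM; NQO1, GPX7, ALOX15B and single markers were added after their values were seen. Alternatives were DESeq2 1.42.0, limma voom 3.58.1, other size factors, filters and offsets, the replicate number as a block, and each library left out. No 2 libraries were identical. Some genes named by this rule are not reported here. Intervals are for the fold change between the conditions and do not bound the values of single libraries. They take in only the variation between these libraries.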

Additional observations from a re-analysis of the deposited data

Results flagged for a closer look

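In 18 sets of 10 libraries (9 genes in 2 conditions), 1 library stood apart by Dixon's criterion, which chance alone meets in about 1 of 20 such sets. TFRC in vehicle replicate 4 was at 356.7 CPM, the next highest vehicle library was at 314.7 CPM, and this gap was 0.536 of the range of the group. The same library was the lowest of the vehicle group for GPX4 and FDXR and the highest for GLS2 and ACSL4. Over all libraries left out in turn, the LFC of TFRC ranged from -0.32 to -0.29, and all nutlin-3 libraries were below the lowest vehicle library.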

How the results depend on the processing

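Of 261 values of the 9 genes under alternative settings, 252 kept the direction and the side of the 5% FDR threshold, and none reversed. The 9 others were all of ACSL4, which became called at an LFC of 0.14 with DESeq2 size factors or with DESeq2, 0.17 with filterByExpr, 0.12 with no filter, 0.35 with the effective length offset and 0.12 with unmatched transcripts in the library sizes. With single libraries left out, its LFC ranged from 0.08 to 0.13, and it was called without vehicle replicate 4, 10 or 12. Effective length also moved GLS2 (LFC 5.26) and TFRC (-0.17), with both calls kept. The number of member transcripts called for usage went from 2 to 1 with a minimum mean count of 10 and to 9 with limma diffSplice, and the cause was not tested. Of 140 counts over single lists, 4 moved by more than 1.5 times. The selenoprotein list had 2 higher genes in place of 4 at 1% FDR and with the replicate block over 16 libraries, and 3 with the same libraries unblocked.

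The replicate numbers were not taken as pairs. Over 8 shared numbers, the correlation of the deviations of same-numbered libraries ranged from -0.037 to 0.071 (15168 genes), and 1 pair correlated best with its own number. With the number as a replicate block over 16 libraries, 7519 genes were higher and 6757 lower of 27247 tested, and 8086 and 6906 with the same libraries unblocked. The block left 4 of the 9 genes higher and 3 lower, with LFCs of 6.27 for GLS2 and -0.15 for GPX4. GLS2 with vehicle and ALOX12 rest on few counts, which limits their precision.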
